A study of Pimephales promelas with 10 samples.

Results

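Among 49849 gene probes of an Agilent array, 86 were bright in some testis pools of the fathead minnow (Pimephales promelas, a small freshwater fish) and dark or much dimmer in others, with nothing in between. They were chosen by their measured levels on 9 arrays. A level is the log2 intensity of a probe minus log2 of the 75th percentile of its own array, so that 0 is that percentile. A probe was taken if its 9 sorted levels held a gap of at least 4 log2 units between neighbours, with 2 or more arrays on each side, and if the mean of the scanner's flag "well above background" over its spots was at least 0.5 on every array above the gap. These probes make up 0.173% of all gene probes. Arrays above a probe's gap are called bright for it and those below dark. The levels and gaps that follow chose them and are given as a description, with no test.

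The fish, all adult males, had lived for 21 days in clean water (control, 0 mg/L) or in water with IMX-101 at 12.6 mg/L. IMX-101 is an insensitive munition formulation that holds NTO, DNAN and NQ, and its concentration was stated with the nominal value for DNAN and measured values for the others. The 9 arrays are control replicates 1 to 5 and exposed replicates 1 to 4. Exposed replicate 5 was left out of the choice because its lowest level, -4.28, hides what is dimmer there. Each array holds the testis RNA of 1 tank, pooled from both of its fish or, in a minority of the study's tanks, taken from a single fish. Which arrays hold a single fish is not stated in the labels, nor is a strain or genotype.

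A testis is a mixture of germ cells at every stage of sperm formation, the Sertoli cells that nurse them and the Leydig cells that make androgens between the cysts or tubules. It transcribes an unusually broad set of genes in fish as in mammals. A probe binds a short stretch of a transcript, so its intensity follows both the amount of that transcript and how well its sequence matches the probe, and these cannot be told apart here. In RNA from a whole testis, fewer cells of a type and less RNA per cell cannot be told apart.

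The probes carry contig, singlet and clone names and no gene symbol, and none of the 49849 names (0) was found in RefSeq's gene table of this species. They are therefore described by name, the testis label could not be checked against marker genes, and no role is given to any probe. By name, 45 of the 26117 probes called SINGLET were on or off probes, 29 of the 14498 called UF_Ppr_AF, 12 of the 8524 called CONTIG and 0 of the 710 called UF_Ppr_AM. The 4 consecutive names from SINGLET_45558 to SINGLET_45561 were all among them, each with a different set of bright arrays, and no other run of consecutive SINGLET names occurred.

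Between 81.4% and 86.5% of gene spots were well above background on the 9 arrays, against 40.3% on exposed replicate 5. The lowest level ran from -8.47 to -7.93 on the 5 control arrays. It was -8.35, -7.90 and -8.16 on exposed replicates 1, 2 and 3 and -7.11 on exposed replicate 4. The arrays came from 3 slides: slide 1 with control replicates 1, 2 and 3 and exposed replicate 1, slide 2 with control replicates 4 and 5 and exposed replicates 2 and 3, and slide 3 with exposed replicates 4 and 5. Library depth has no counterpart on an array, and the number of arrays limits the precision.

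**Figure D1:**
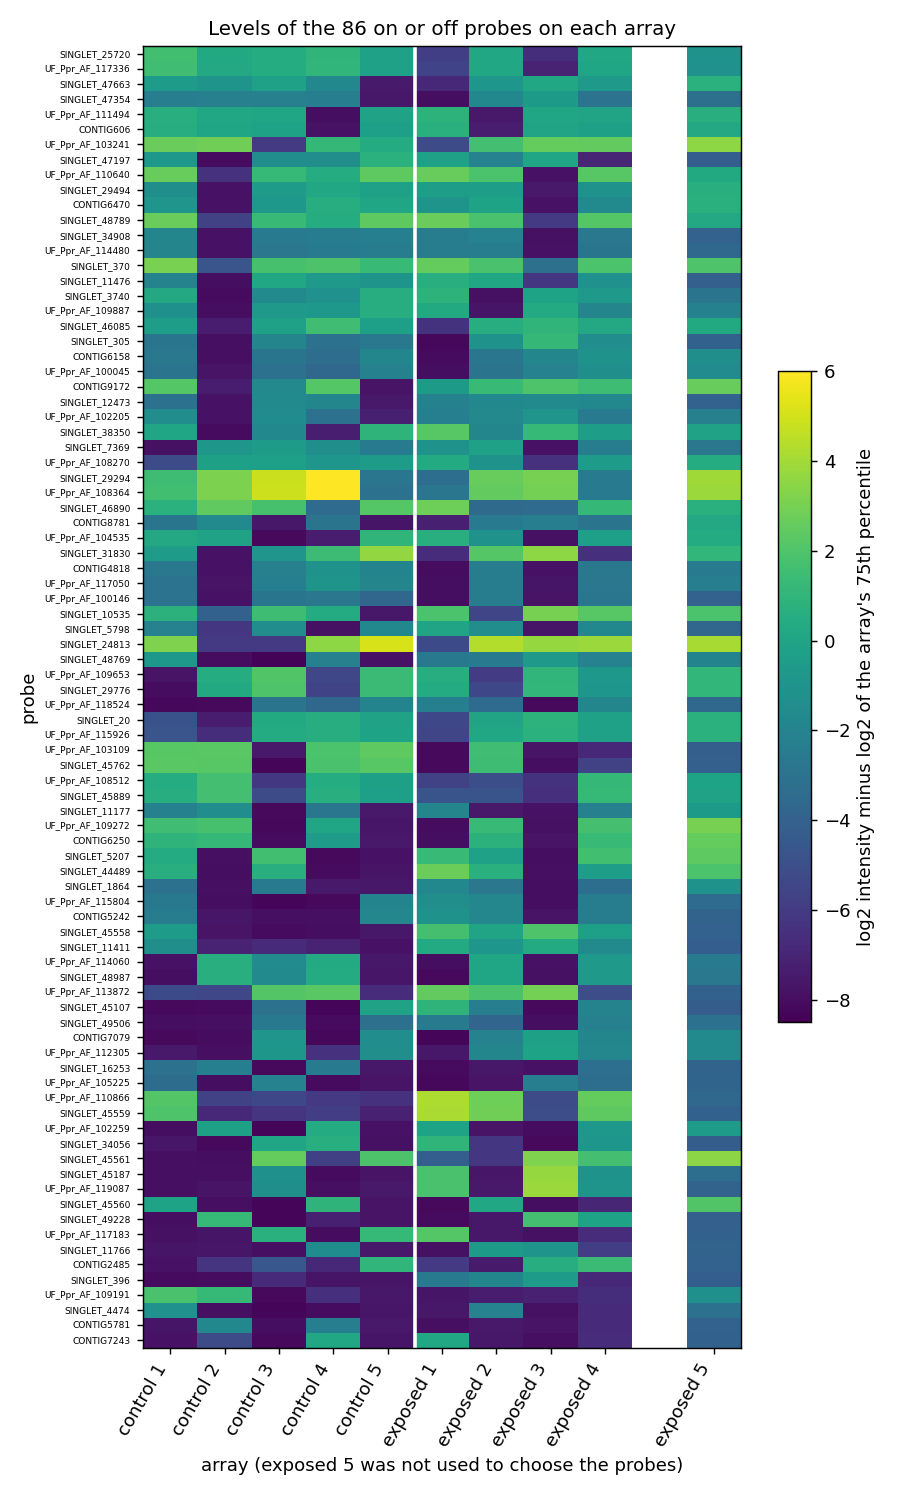
Level (log2 intensity minus log2 of the array's 75th percentile, colour) of each of the 86 on or off probes (rows, ordered by number of bright arrays) on the 5 control and 4 exposed arrays that chose them and, set apart, on exposed replicate 5. Bright and dark cells occur in both groups, and the dark cells reach about -8 on the 9 arrays but not below -4.28 on exposed replicate 5.

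The gaps ran from 4.03 to 8.46 log2 units with a median of 5.22, and 15 of the 86 were 7 or wider. Below the gap lay 303 of the 774 values, and above it 471. Of the 303 lower values, 264 (87.1%) had no spot well above background, and 200 (66.0%) were at or under the 95th percentile of the array's negative control spots. The word "off" thus describes most of the lower values and not all of them. In 64 probes no array below the gap had a spot well above background. In 22 probes at least 1 lower array did, and in 4 of these (SINGLET_370, SINGLET_46890, SINGLET_29294 and UF_Ppr_AF_108364) every lower array did, so that these switched between a high and a low measured level.

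SINGLET_24813 had the widest gap. Its levels were 3.20, -6.06, -6.04, 3.53 and 5.13 on control replicates 1 to 5 and -5.26, 4.35, 3.72 and 3.85 on exposed replicates 1 to 4. Control replicates 2 and 3 and exposed replicate 1 were dark, and the groups overlapped. The dimmest bright array, control replicate 1, was 353-fold above exposed replicate 1, the brightest of the dark arrays, where the spot was still well above background.

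UF_Ppr_AF_103109 had levels of 2.23, 2.27, -7.49, 1.89 and 2.39 on the control arrays and of -8.14, 1.54, -7.74 and -6.82 on the exposed arrays. It was bright in 4 of 5 control tanks and in exposed replicate 2 alone of the exposed ones. Where no lower array was well above background, a gap has only a lower bound: the dimmest bright array against the highest, over the dark arrays, of the probe's own level or the lowest level of any spot well above background there. Over the 86 probes this bound ran from 2.01 to 8.46 log2 units with a median of 4.11, or 17.2-fold, and it was at least 4 log2 units for 48 of them. The bound is approximate, since some spots above the lowest flagged level were not flagged. SINGLET_25720 was not flagged at -5.83 on exposed replicate 1, where the lowest flagged level was -6.01. By this measure UF_Ppr_AF_103109 differed at least 79.2-fold between bright and dark arrays, and "at least" has that meaning for the other probes.

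UF_Ppr_AF_109191 was bright in 2 control pools and no exposed one of the 4. Its levels were 1.81, 1.21, -8.14, -6.47 and -7.58 on the control arrays and -7.69, -7.38, -7.18 and -6.62 on the exposed arrays, a difference of at least 62.9-fold. Control replicates 1 and 2 stood apart from the 7 others. On exposed replicate 5, however, the probe stood at -1.21 and was well above background, so that an exposed pool was bright by that flag.

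UF_Ppr_AF_109272 had levels of 1.53, 1.80, -8.21, 0.04 and -7.62 on the control arrays and of -8.03, 1.33, -7.83 and 1.73 on the exposed arrays. It was bright in 3 control and 2 exposed pools and dark in the rest, by at least 49.8-fold. SINGLET_5207 had levels of 0.40, -7.91, 1.60, -8.12 and -7.77 on the control arrays and of 1.35, -0.18, -7.97 and 1.59 on the exposed arrays. SINGLET_44489 had levels of 0.59, -7.96, 0.65, -8.08 and -7.72 on the control arrays and of 2.73, 0.71, -7.93 and -0.35 on the exposed arrays. Both of the latter were bright in control replicates 1 and 3 and exposed replicates 1, 2 and 4, by at least 42.9-fold and 38.1-fold.

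UF_Ppr_AF_117183 was printed as 10 spots. Its mean levels were -7.86, -7.68, 0.72, -8.00 and 1.19 on the control arrays and 2.20, -7.59, -7.86 and -6.67 on the exposed arrays. Control replicates 3 and 5 and exposed replicate 1 were bright, at least 44.8-fold above the rest. UF_Ppr_AF_111494 showed the reverse balance, dark in only 2 pools: 0.65, 0.18, 0.08, -7.94 and -0.13 on the control arrays, and 0.86, -7.51, 0.07 and -0.05 on the exposed arrays. Its 7 bright values lay within 0.99 log2 units, while control replicate 4 and exposed replicate 2 were at least 42.9-fold lower.

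**Figure D2:**
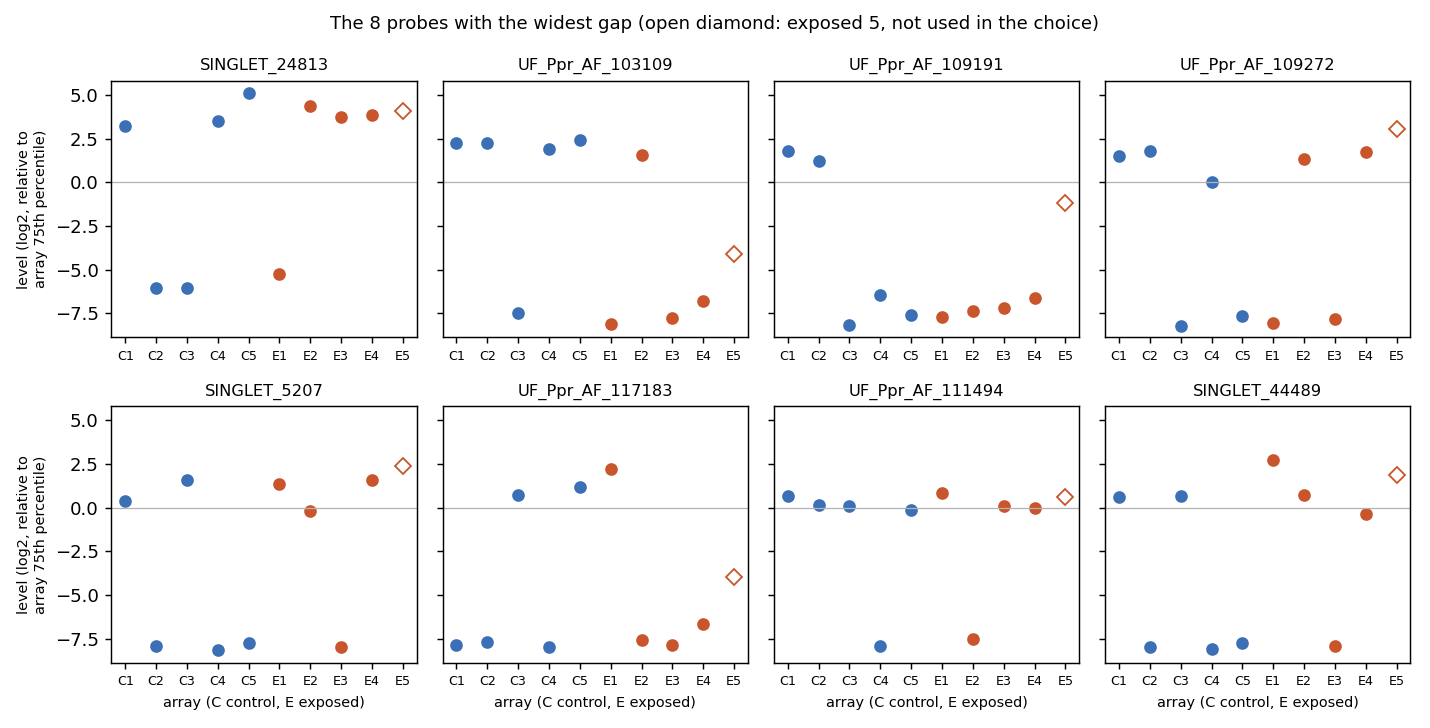
Level (log2, relative to the array's 75th percentile) of the 8 probes with the widest gap on each control (C, blue) and exposed (E, orange) array; the open diamond is exposed replicate 5, which did not choose the probes. In each panel the 9 filled points fall into a bright and a dark set, and no panel parts the blue from the orange points.

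Above the gap the probes differed in how even they were. The mean level on the bright arrays ran from -2.92 to 3.96 with a median of 0.068, and it was above 0, the 75th percentile of the array, in 44 of the 86. The range over a probe's bright arrays ran from 0.016 to 5.10 log2 units with a median of 1.87. For comparison, the median range over all 9 arrays was 1.24 among the 35857 probes well above background on every array. In 14 probes the bright values lay within 1 log2 unit, and in 7 they spread over more than 4. A range grows with the number of arrays, which was 2 to 7 for the bright arrays and 9 in the comparison. The smallest range, 0.016, was that of CONTIG7243, bright on only 2 arrays. Evenness is thus not compared at equal numbers of arrays.

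The pair with the highest levels beside SINGLET_24813 was of the uneven kind. SINGLET_29294 had levels of 1.51, 3.12, 4.85, 5.94 and -2.81 on the control arrays and of -3.25, 2.66, 3.01 and -2.58 on the exposed arrays. UF_Ppr_AF_108364 followed it at 1.59, 3.14, 4.89, 5.95 and -3.05 on the control and -2.80, 2.54, 2.99 and -2.48 on the exposed arrays. Both ranged over more than 4 log2 units among the 6 high arrays and were still well above background on the 3 low ones, control replicate 5 and exposed replicates 1 and 4.

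The bright arrays formed 52 different sets, of 492 that the rule allows. Of these, 29 were held by a single probe and 23 by 2 or more. Most of the 23, by a narrow margin, were held only by a pair of near duplicates (described below), such as UF_Ppr_AF_111494 and CONTIG606. Such a set is held by a single probe when the pair is counted once. The sets were not recounted with each such pair counted once. Bright arrays numbered 7 for 28 probes, 6 for 18, 5 for 21, 4 for 9, 3 for 6 and 2 for 4.

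The commonest set, with 8 probes, near duplicates among them, was dark in control replicate 2 and exposed replicate 3 alone. In it UF_Ppr_AF_110640 had levels of 2.66, -6.43, 1.24, 0.48 and 2.40 on the control arrays and of 2.61, 1.91, -7.81 and 2.23 on the exposed arrays. SINGLET_29494 had levels of -1.29, -7.82, -0.50, 0.13 and -0.20 on the control arrays and of -0.39, -0.45, -7.54 and -1.06 on the exposed arrays. CONTIG6470 had levels of -0.93, -7.78, -0.75, 0.54 and 0.00 on the control arrays and of -0.09, -7.77 and -1.60 on exposed replicates 2, 3 and 4, with a value between those of its other bright arrays on exposed replicate 1. Beside the shared dark pools, the bright values of UF_Ppr_AF_110640 ordered the pools differently from those of SINGLET_29494 and CONTIG6470, a pair of near duplicates. UF_Ppr_AF_110640 was highest in control replicate 1, and both probes of that pair in control replicate 4.

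The next set, with 4 probes, near duplicates among them, was dark in control replicate 2 and exposed replicate 1. SINGLET_46085 had levels of -0.35, -7.36, -0.21, 1.54 and -0.31 on the control arrays and of -6.38, 0.55, 1.01 and 0.23 on the exposed arrays. SINGLET_305 had levels of -2.84, -7.92, -1.87, -3.07 and -2.71 on the control arrays and of -8.18, -1.10, 1.14 and -1.38 on the exposed arrays. CONTIG6158 had levels of -2.68, -7.92, -2.88, -3.32 and -1.83 on the control arrays and of -8.07, -2.79, -1.86 and -1.07 on the exposed arrays. The 3 probes shared their dark pools at different brightness, with gaps of 6.03, 4.85 and 4.60 log2 units.

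The 3 sets next in size held 3 probes each. One was that of SINGLET_5207 and SINGLET_44489, to which SINGLET_1864 belonged at a lower level (-3.05, -7.90, -2.61, -7.51 and -7.56 on the control and -1.71, -2.74, -7.94 and -3.25 on the exposed arrays). Dark in control replicates 2 and 5 alone were CONTIG9172, SINGLET_12473 and UF_Ppr_AF_102205. CONTIG9172, the brightest of them, had levels of 2.17, -7.40, -1.69, 2.16 and -7.75 on the control and of -0.59, 1.30, 1.98 and 1.47 on the exposed arrays; the gaps of the other two were 4.45 and 4.16. Dark in control replicate 2 and exposed replicates 1 and 3 were CONTIG4818, UF_Ppr_AF_117050 and UF_Ppr_AF_100146, with gaps of 5.10, 4.75 and 4.03. Of these, CONTIG4818 and UF_Ppr_AF_117050 are near duplicates.

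Control replicate 2 was dark in every one of these 5 sets. Over all 86 probes it was dark for 56, the most of the 9 arrays. The other control arrays were dark for 26 (replicate 1), 29 (replicate 3), 31 (replicate 4) and 37 (replicate 5). Among the exposed arrays the counts were 39 (replicate 1), 24 (replicate 2), 46 (replicate 3) and 15 (replicate 4). The 2 groups overlapped in this count. Control replicate 2 had 84.4% of all gene spots well above background and exposed replicate 3 had 82.9%. The other arrays ran from 81.4% (control replicate 5) to 86.5% (control replicate 4). Whether signal quality bears on these counts was not tested. Exposed replicate 4, with the fewest dark probes, also had the highest lowest level, -7.11. With all arrays raised to that level 78 of the 86 probes still met the rule. That number does not show how many would be dark on each array.

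**Figure D3:**
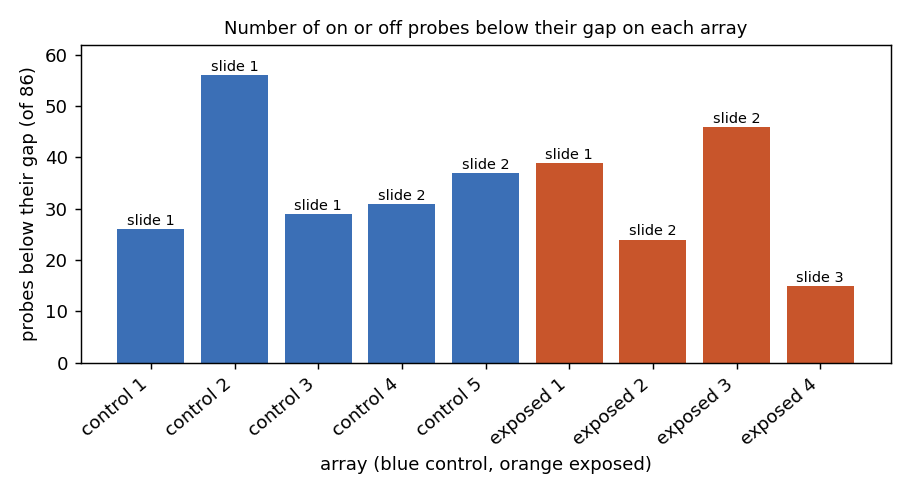
Number of the 86 on or off probes below their gap (vertical axis) on each of the 9 arrays, control in blue and exposed in orange, with the slide above each bar. Control replicate 2 has the most, 56, and exposed replicate 4 the fewest, 15, and the bars of the 2 groups overlap in height.

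Both states occurred within groups and within slides. Of the 86 probes, 83 had bright and dark arrays among the controls and 77 among the 4 exposed arrays. Within slide 1, 81 showed both states and within slide 2, 75 did, and no probe was left that showed both in neither slide. No probe was bright on all of slide 1 and dark on all of slide 2, or the reverse (0 and 0 probes). These counts follow largely from the rule. Most of the 492 sets that it allows hold both states within each group and within each of these slides. They therefore do not show whether group or slide bears on the states.

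How often 2 arrays were in the same state varied widely. Control replicate 2 and exposed replicate 2 shared the state for 28 of 86 probes, the fewest of the 36 pairs of arrays counted, and control replicate 1 and exposed replicate 2 for 60. Control replicate 3 and exposed replicate 4 shared it for 60 as well. Pairs of control arrays had a median of 45.5 (29 to 58), pairs of exposed arrays of 41 (37 to 55) and pairs across the groups of 46 (28 to 60). Pairs on the same slide had a median of 41 (29 to 57) and pairs on different slides of 47.5 (28 to 60). The ranges overlapped throughout. These counts depend on how many probes were dark on each array, from 15 on exposed replicate 4 to 56 on control replicate 2. They were not adjusted for it, so they do not measure likeness between particular pools.

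Many of the probes came as near duplicates. Among the 61 pairs of probes with the same set of bright arrays, 17 pairs also had nearly the same levels on these arrays, with a root mean square difference of at most 0.5 log2 units, a limit chosen after the values were seen. The largest in these pairs was 0.416 and the smallest outside them 0.552. They took in 34 probes, none in more than 1 pair, so that the 86 probes come to 69 when each pair is counted once. In 16 of the 17 pairs one name was of the UF_Ppr_AF kind and the other was SINGLET or CONTIG. Whether both probes of a pair read 1 transcript was not tested, and each is counted as a probe of its own except where stated.

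CONTIG606, the partner of UF_Ppr_AF_111494, had levels of 0.55, 0.09, -0.10, -7.80 and -0.30 on the control arrays and of 0.71, -7.34, -0.05 and -0.25 on the exposed arrays. SINGLET_48789, the partner of UF_Ppr_AF_110640, had levels of 2.71, -5.69, 1.32, 0.45 and 2.41 on the control and of 2.69, 1.84, -6.06 and 2.19 on the exposed arrays. On the bright arrays it stayed within 0.081 log2 units of UF_Ppr_AF_110640. SINGLET_25720 and UF_Ppr_AF_117336, bright in every control pool, were dark in exposed replicates 1 and 3 alone. The first had 1.59, 0.33, 0.50, 0.98 and -0.23 on the control and -5.83, 0.19, -6.60 and 0.16 on the exposed arrays, and the second stayed within 0.129 of it on the bright arrays.

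Exposed replicate 5, which chose neither the probes nor the pairs, gives a further reading. In 8 of the 17 pairs every spot of both probes was well above background there, in 7 pairs no spot was, and in 2 pairs a probe had 1 of its 2 spots so. Over the 17 pairs the levels of the 2 probes had a median difference of 0.109 and a largest difference of 0.630 log2 units. In the 7 pairs with no such spot, all levels lay between -4.28, the lowest level there, and -1.93, the lowest one well above background. That narrow span limits how far they could differ, so these pairs say little. Among the 8 pairs with every spot well above background, the largest difference was 0.378 (UF_Ppr_AF_111494 and CONTIG606). SINGLET_29294 and UF_Ppr_AF_108364 stood at 3.93 and 3.82 there, and UF_Ppr_AF_103109 and SINGLET_45762 at -4.08 and -4.05, near its lowest level.

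**Figure D4:**
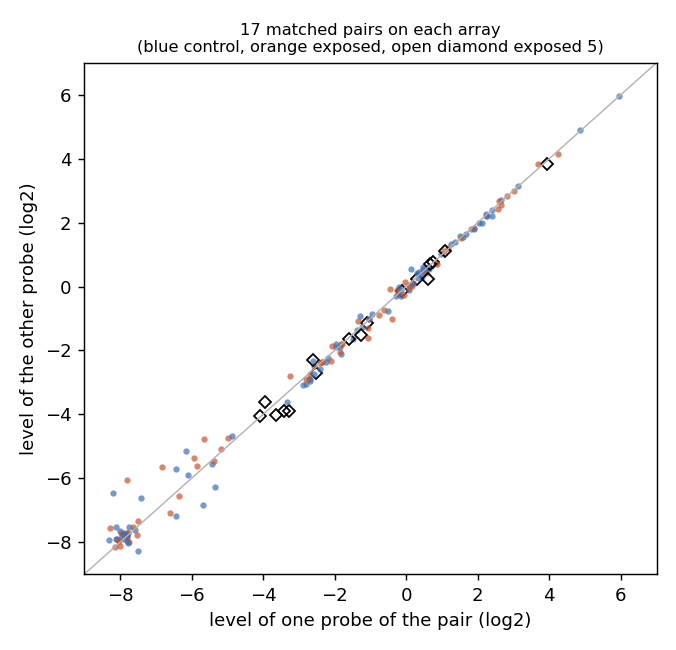
Level (log2) of one probe against that of its partner for the 17 matched pairs, with a point for each control (blue) and exposed (orange) array and an open diamond for exposed replicate 5; the line marks equal levels. Points lie close to the line at high levels and scatter around it below about -5, and the diamonds of exposed replicate 5 lie within 0.630 log2 units of it.

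A few probes had opposite sets, bright exactly where another was dark. The rule gave 9 such pairs among the 86 probes, and 6 of them fall into 2 blocks of near duplicates. SINGLET_45762 (2.28, 2.22, -8.28, 1.81 and 2.22 on the control and -8.14, 1.51, -7.99 and -5.63 on the exposed arrays) and its near duplicate UF_Ppr_AF_103109 made up the first side of one block. On the other side stood SINGLET_45187, with -7.88, -7.88, -1.23, -8.08 and -7.74 on the control and 1.83, -7.64, 3.69 and -1.04 on the exposed arrays, and its near duplicate UF_Ppr_AF_119087. Every pool was bright for one side and dark for the other. Their Pearson correlations over the 9 arrays ran from -0.963 to -0.958, as a description of levels that share the arrays and their scaling. Such values follow from the choice of opposite sets with wide gaps on these arrays. For each of the 86 probes, the most opposite probe had a correlation between -0.994 and -0.915. On exposed replicate 5 all 4 were dim, between -4.08 and -3.26, where the lowest level of a spot well above background was -1.93.

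The second block set SINGLET_45560 (-0.07, -7.90, -8.28, 0.91 and -7.71 on the control and -8.16, 0.17, -7.96 and -6.92 on the exposed arrays) against UF_Ppr_AF_109653 (-7.76, 0.46, 2.04, -5.43 and 1.38 on the control and 0.55, -5.93, 1.06 and -0.76 on the exposed arrays) and its near duplicate SINGLET_29776. These were opposite on the 9 arrays but not on exposed replicate 5, where all 3 were bright, at 2.07, 1.09 and 1.10. The remaining 3 pairs were UF_Ppr_AF_117183 with CONTIG8781, SINGLET_38350 with CONTIG5781, and SINGLET_11766 with SINGLET_46890. In these 3 pairs a single probe was well above background on exposed replicate 5. There CONTIG8781 stood at 0.26 against -3.99 for UF_Ppr_AF_117183, and SINGLET_38350 at -0.15 against -3.96 for CONTIG5781. SINGLET_46890 stood at 0.68 against -3.89 for SINGLET_11766. The opposite sets were looked for after the levels had been seen, and how many would arise by number alone was not tested.

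**Figure D5:**
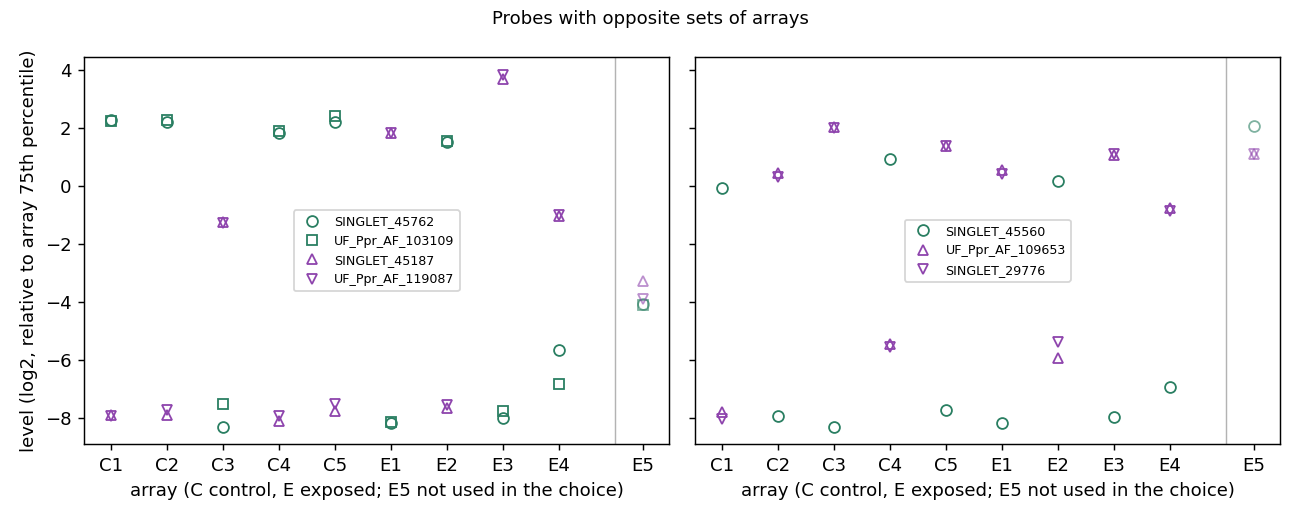
Level (log2, relative to the array's 75th percentile) of 4 probes in one block (left) and 3 in the other (right) that were bright on opposite sets of the 9 control (C) and exposed (E) arrays; exposed replicate 5 stands right of the line. On the left, every array but exposed replicate 5 has one colour high and the other low; on the right, exposed replicate 5 has all 3 probes high, at 2.07, 1.09 and 1.10.

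Repeat spots of a probe lay on the same side of its gap, which follows largely from the choice. Of the 86 probes, 17 were printed more than once, 16 as 2 spots and UF_Ppr_AF_117183 as 10, and 69 as a single spot. All 378 spot values of these 17 probes lay on the side of the gap's middle that the probe's mean gave (0 on the other side). The same spots were averaged into the levels that chose the probes by a wide gap. That count is therefore a description and no check of the states. On bright arrays the SD between spots of a probe was at most 0.230 log2 units, and the smallest distance between the lowest bright and the highest dark spot was 3.12. The spots of UF_Ppr_AF_117183 lay up to 265 rows apart on the array, and their largest SD on a bright array was 0.072. Gene spots within 3 rows and columns of a member's spot were well above background for 83.8% of values on its dark arrays and for 83.8% on its bright arrays.

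On exposed replicate 5 the lowest level, -4.28, lay above the middle of the gap for 39 of the 86 probes, so that the middle could not part the states there. By the background flag, with at least 0.5 of a probe's spots well above background, 43 of the 86 probes (50%) were bright on that array, against 39.3% of all gene probes. Of these 43, 22 lay within the range of the probe's bright arrays, 15 above it and 6 below it. Over the 9 arrays 60.9% of the values were bright. Among the 56 probes whose bright levels all exceeded -1.93, the lowest level well above background on exposed replicate 5, 37 were bright there and 19 were not.

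The study's own question was whether the exposure changed testis expression. The rule did not use the groups, but it picked probes for a wide spread on the same arrays, so the following fit is no independent test of them. No probe was bright in all 4 exposed and dark in all 5 control pools, or the reverse (0 and 0 of 86). Each such split is a single set among the 492 that the rule allows, so its absence says little about the exposure. Bright arrays were found in both groups for 83 probes, in exposed pools alone for 1 and in control pools alone for 2, where most allowed sets also take in both groups. The share of bright arrays was higher among the exposed for 41 probes and higher among the controls for 45. The mean level was higher in exposed testes for 50 of the 86 and lower for 36, with a median difference of 0.31 log2 units, against 47.6% of all probes higher and a median of -0.02.

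The limma fit took in the 43071 probes that reached the background flag on 3 or more arrays of a group, among them 74 of the 86. No on or off probe was called (0 of 74 at a limma adjusted p under 0.05), and none was called among all probes (0% of 43071). At an unadjusted p under 0.05 there were 9 of 74 (12.2%), 7 higher and 2 lower after exposure, against 9.29% of all probes tested. These 9 include 3 near duplicate pairs, and with each pair counted once they were 5 higher and 1 lower. With 1 array left out the count ran from 4 of 74, without exposed replicate 1, to 11, without control replicate 3, and it was 5 without control replicate 4. The shares of all probes tested in these fits were 12.1%, 8.48% and 7.62%. With the replicate number as a block the count was 19 of 74, against 8.62% of all probes tested. Same-numbered tanks share only a number, and their deviations from the group means correlated at -0.023 to 0.084. The block thus has no stated basis, and near duplicates were not counted once among the 19. None of the 19 had a limma adjusted p under 0.552, and control replicate 5, alone in its block, carried no weight in that fit. Among the 74, the exposed and control levels did not overlap in 1 (1.35%), SINGLET_45558, against 4.1% of all probes tested. The median SE of the difference was 1.95 log2 units, with a median half-width of 4.39 for the 95% interval.

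The probe that was bright in exposed pools alone was SINGLET_396. Its levels were -8.08, -8.01, -6.69, -7.68 and -7.76 on the control arrays and -2.56, -1.83, -0.47 and -6.90 on the exposed arrays. Exposed replicate 4 was dark like the controls, and on exposed replicate 5 the probe stood at -4.17, not well above background. The log2 difference was 4.70 (SE 1.09, 95% interval 2.24 to 7.16, limma adjusted p = 0.427). The probe entered the fit through its bright exposed arrays alone. No dark array had a spot of it well above background, so the size of the difference rests on background levels. By the bound given above, its gap was at least 2.20 log2 units. With 1 array left out the difference ran from 3.88 to 6.02 (limma adjusted p = 0.0502 to 0.785), highest without the dark exposed replicate 4.

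SINGLET_45558 and SINGLET_11411 were bright in the 4 exposed pools and in a single control pool. SINGLET_45558 had levels of -0.49, -7.71, -8.08, -7.98 and -7.54 on the control arrays and of 1.71, -0.04, 2.02 and -0.34 on the exposed arrays. SINGLET_11411 had levels of -1.29, -7.13, -6.69, -7.07 and -7.79 on the control arrays and of 0.38, -0.88, 0.35 and -1.57 on the exposed arrays. Control replicate 1 was the exception in both. In SINGLET_45558 it lay only 0.148 log2 units below the lowest exposed array, so the groups did not overlap, and in SINGLET_11411 they did. On exposed replicate 5 both were near the lowest level, at -3.92 and -4.19. The log2 differences were 7.20 (SE 1.52, 95% interval 3.77 to 10.6) and 5.57 (SE 1.23, 95% interval 2.80 to 8.34), each with a limma adjusted p of 0.427. No dark array had a spot of either probe well above background, so these sizes rest on background levels. By the bound given above, the gaps were at least 5.11 and 4.03 log2 units. Without control replicate 1 they were 8.67 and 6.74 (limma adjusted p = 0.00682 and 0.00879). These were the 2 calls among all 43071 probes of that fit (0.00464%), and they were picked out here for this result. Both probes entered the fit through the exposed arrays, where they are bright. Without control replicate 1 no control array had a spot of them well above background. Those p-values thus rest on a narrow spread of background levels and are no test of the exposure.

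The probes bright in control pools alone on the 9 arrays were UF_Ppr_AF_109191, given above, which was well above background on exposed replicate 5, and CONTIG5781. CONTIG5781 had levels of -7.70, -1.71, -7.96, -2.28 and -7.51 on the control arrays and of -7.89, -7.50, -7.74 and -6.75 on the exposed arrays. Control replicates 2 and 4 were bright, by at least 5.59-fold, and the other control pools were as dark as the exposed ones. On exposed replicate 5 it stood at -3.96, not well above background.

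Near the limit of 4 the distinction was one of degree. The 3 probes just inside it were UF_Ppr_AF_100146, UF_Ppr_AF_108364 and SINGLET_29294, with gaps of 4.03, 4.07 and 4.10. Just outside stood SINGLET_31408, UF_Ppr_AF_103285 and SINGLET_33231, with gaps of 3.96, 3.95 and 3.95. SINGLET_31408 was bright on the same arrays as SINGLET_45762, from -0.25 to 0.78, and stood between -5.42 and -4.20 on the others. In all, 481 probes met the other conditions with a gap of at least 2, 168 with one of at least 3, 50 with one of at least 5 and 28 with one of at least 6.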

How the data were processed

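Whole testis RNA was hybridised to single-colour (Cy3) arrays, and spots were quantified by Feature Extraction (Agilent, version 10.7.3.1), per the submitters' processing notes. The deposited intensity is the processed spot signal, per the file headers, with background subtracted. The authors also deposited a table of log2 values, whose making is not stated. Each column followed the scanner's log2 intensity minus the 75th percentile, centred per probe over the 10 arrays (r of at least 0.99995 on every array). Such a correlation is hardly changed by a constant added to an array, so it does not single out the 75th percentile. The column medians ran from -0.152 to 0.178. The authors' table was used as an alternative.

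The members, lists and limits were chosen with earlier results of these data known. Levels printed use all gene spots. The limma 3.58.1 fit (R 4.3.3, group only, Benjamini-Hochberg) left out spots flagged as outliers (131 to 167 per array), of which 1 was a member's. No gene spot was saturated (0). Tank replicates were taken from the labels. Probes were named by rule: the 8 widest gaps, 3 for each of the 5 commonest sets, the 3 just inside and outside the limit, and the 3 highest; others were named after their values were seen. Fits and rule were tested on simulated data. Python 3.11.15 and matplotlib 3.10.9 were used. Probe sequences are not used here.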

Additional observations from a re-analysis of the deposited data

Results flagged for a closer look

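Of 80 groups of 4 or 5 values checked (counts, signal and the levels of 37 probes), 31 held a value far from the rest of its group, where chance gives about 1 in 20. The probes were chosen for levels that split the arrays, so such values are frequent among them by choice; a single dark or bright array in a group stood far enough apart only where the rest of the group lay close together. The share of gene spots flagged by the scanner as above background was 40.32% on exposed replicate 5, far from the other exposed arrays.

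Among the values so found, single dark control arrays were control replicate 2 for UF_Ppr_AF_110640 (-6.43), SINGLET_29494 (-7.82), CONTIG6470 (-7.78), SINGLET_46085 (-7.36), SINGLET_305 (-7.92), CONTIG6158 (-7.92), CONTIG4818 (-7.80), UF_Ppr_AF_117050 (-7.72), UF_Ppr_AF_100146 (-7.80) and SINGLET_48789 (-5.69). Control replicate 3 was the dark one for UF_Ppr_AF_103109 (-7.49) and SINGLET_45762 (-8.28), and control replicate 4 for UF_Ppr_AF_111494 (-7.94) and CONTIG606 (-7.80). Single bright control arrays were control replicate 1 for SINGLET_45558 (-0.49) and SINGLET_11411 (-1.29), and control replicate 3 for SINGLET_45187 (-1.23) and UF_Ppr_AF_119087 (-1.27). Control replicate 3 was also apart for SINGLET_396, at -6.69, below its gap like the other controls.

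The single dark exposed arrays so found were exposed replicate 1 for SINGLET_24813 (-5.26), SINGLET_46085 (-6.38) and CONTIG8781 (-7.22), exposed replicate 2 for UF_Ppr_AF_111494 (-7.51) and CONTIG606 (-7.34), and exposed replicate 3 for UF_Ppr_AF_110640 (-7.81), SINGLET_29494 (-7.53) and SINGLET_48789 (-6.06). The single bright exposed arrays so found were exposed replicate 1 for UF_Ppr_AF_117183 (2.20) and exposed replicate 2 for UF_Ppr_AF_103109 (1.54) and SINGLET_45560 (0.17).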

How the results depend on the processing

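The number of on or off probes was 86 in 52 sets of bright arrays. It was 168 in 86 sets with a gap of at least 3, 50 in 35 sets with a gap of at least 5, 54 with 3 or more arrays on each side, and 53 in 34 sets over all 10 arrays, where exposed replicate 5 has no levels under -4.28. With normexp, run on the median spot signal because the files hold no mean signal, it was 8 in 6 sets. This setting changed the signal, the background correction and an added offset of 50 together. The offset keeps every value above 50, which by itself limits how wide a gap can be. Which of these changes lowered the count was not tested, so the 8 is no measure of the background correction alone. Quantile normalization kept 78 of the 86 probes and median centring 81. Leaving out 1 array gave 66 (without control replicate 2) to 98 (without exposed replicate 4) probes, and 41 to 57 sets. The common lowest level was added after seeing the data.

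Limma called 3 probes over all 10 arrays and 3 at an adjusted p under 0.1, and 0 to 2 with 1 array left out; of the on or off probes it called 0 to 2, the 2 without control replicate 1. It called 0 on or off probes in every other fit. With the replicate number as a block (replicate block) it called 0 probes in all (3713 at an unadjusted p under 0.05). Control replicate 5, the only array of its number in that fit, carried no weight in the difference. Same-numbered tanks share only a number, their deviations from the group means correlating at -0.023 to 0.084. Over 23 alternative settings the log2 differences of SINGLET_45558, SINGLET_11411 and SINGLET_396 stayed positive, with limma adjusted p from 0.00682 to 0.785. They ran from 3.83 to 8.75, 2.91 to 7.17 and 1.96 to 6.57, the lowest with normexp. One setting, the limit of 0.1, repeats the main fit. The 3 probes were named after their values were seen, so the unchanged sign is no independent support. The lowest p came without control replicate 1, where no control spot of SINGLET_45558 was well above background. Within slide 2 the log2 differences were 8.75, 7.17 and 6.57 (limma adjusted p = 0.76 each). Within slide 1, with a lone exposed array and so only as values, they were 7.14, 5.42 and 5.03. With slide as a fixed block they were 8.06, 6.42 and 5.91 (limma adjusted p = 0.381, 0.381 and 0.0998). Exposed replicate 4 was the only array of slide 3 in that fit and so carried no weight in the difference. For SINGLET_396 it was the dark exposed array. Above the middle of the gap, exposed replicate 5 had 86.05% of the probes, and well above background 50%. For 39 of the 86 the middle lay under the lowest level of that array, so these counted as above it whatever their signal. Of the 47 others, 35 were above it. Signal over background limits these values: where no dark array was well above background, only an approximate lower bound of the gap is known.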
